A study of Mus musculus with 12 samples.

Results

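The 9 genes followed here are ones whose mutation causes polycystic kidney disease in people or in mice: Pkd1, Pkd2, Pkhd1, Dzip1l, Ganab, Dnajb11, Alg9, Cys1 and Bicc1. They were taken by symbol from a table of 54532 genes, which lists each of the 9 once, and all 9 passed the cutoff on low counts. Whole kidneys of C57BL/6 mice were collected at 18 days of age, and RNA was sequenced from 12 mice in 4 groups of 3. The noncystic groups were Pkd1 RC/F mice without Cre, in which F is a floxed and still functional allele and RC is a missense allele. The cystic groups, Pkd1 RC/-, carried the same alleles together with Ksp-Cre, which inactivates the floxed copy in kidney tubule epithelium. In each setting, one group had Pkd2 +/+ and the other Pkd2 Δ17/Δ17, in which the binding motif of miR-17 had been deleted by genome editing from the 3′-UTR of both Pkd2 alleles. All 12 mice thus carried the RC allele, no group was free of a Pkd1 mutation, and cells outside the Ksp-Cre lineage kept the floxed copy. Total counts ran from 18800307 to 24453033 per mouse. Values below are given in the order of the mouse numbers, with mice 19 to 21 noncystic Pkd2 +/+, mice 22 to 24 noncystic Pkd2 Δ17/Δ17, mice 25 to 27 cystic Pkd2 +/+ and mice 28 to 30 cystic Pkd2 Δ17/Δ17. No sex is given in the labels, so a fit that includes Xist was among the alternatives.

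The disease has a dominant and a recessive form. Pkd1 and Pkd2 encode polycystin-1 and polycystin-2, which form a receptor-channel complex of the primary cilium and are the main genes of the dominant form. Pkhd1, the main gene of the recessive form, encodes fibrocystin, a large membrane protein of tubule and bile duct epithelium, and Dzip1l encodes a protein of the ciliary transition zone. Ganab, Dnajb11 and Alg9 act in the endoplasmic reticulum, where polycystin-1 is glycosylated and folded. Cys1 encodes cystin, a ciliary protein missing in the cpk mouse, and Bicc1 encodes an RNA-binding protein mutated in the jcpk and bpk mice.

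The edited motif is a match to the seed of miR-17 (bases 2 to 8 of the microRNA, in capitals here), and the same seed is shared by all 6 mature microRNAs of the family in RefSeq (GRCm38.p6). The 3′-UTRs of the 9 genes were searched on the mRNA strand for GCACTTTA (8 bases), GCACTTT and CACTTTA (7 bases each, both contained in the first), and the matches are in capitals in the reference sequences below, which for Pkd2 show the unedited allele. They are shown because only 3 of the 9 genes hold one, and 1 of these 3 was edited.
miR-17-5p: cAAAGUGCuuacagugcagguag
miR-93-5p: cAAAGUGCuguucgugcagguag
miR-106b-5p: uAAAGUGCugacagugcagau
Pkd1: atggggcttctGCACTTTAaaaaggctgtg
Pkd2: tataattttctGCACTTTAatttattttac
Bicc1, first match: gaggtcttccaGCACTTTAcacggtctagt
Bicc1, second match: gccctaggttgtCACTTTAtttaaaaaaag

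In GRCm38, the Pkd2 match (chr5:104503821-104503828, forward strand) began 133 nucleotides after the stop codon in exon 15 of 15, within a 3′-UTR of 2131 nucleotides. The Pkd1 match (chr17:24595732-24595739, forward strand) began at nucleotide 193 in exon 46 of 46, within a 3′-UTR of 969 nucleotides. Bicc1 held an 8-base match (chr10:70924747-70924754, reverse strand) and a 7-base match (chr10:70924238-70924244) at nucleotides 491 and 1001 of a 3′-UTR of 2413 nucleotides, both in exon 21 of 21. None of these matches lay in bases shared with another gene. The 3′-UTRs of the other 6 genes, 519 to 1453 nucleotides long, held no match. Over the 21018 genes with an annotated 3′-UTR, 18.6% held a 7- or 8-base match and 3.51% the 8-base one, at a median 3′-UTR length of 960 nucleotides. A match is a description of letters and does not show binding.

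In GRCm38 coordinates, Pkd1 (ENSMUSG00000032855) lies at chr17:24549834-24596508, Pkd2 (ENSMUSG00000034462) at chr5:104459450-104505819, Dzip1l (ENSMUSG00000037784) at chr9:99629496-99669256, Ganab (ENSMUSG00000071650) at chr19:8898071-8916672, Dnajb11 (ENSMUSG00000004460) at chr16:22857845-22879634 and Alg9 (ENSMUSG00000032059) at chr9:50775019-50843542, all on the forward strand. Pkhd1 (ENSMUSG00000043760) at chr1:20057779-20618064, Cys1 (ENSMUSG00000062563) at chr12:24665833-24681813 and Bicc1 (ENSMUSG00000014329) at chr10:70922832-71159700 lie on the reverse strand.

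Levels between genes were compared in CPM, the counts relative to a library size scaled by the trimmed mean of M-values (TMM), per kilobase of exon that no other gene shares. On this scale the levels averaged over the 12 mice were highest for Ganab (43.8), Bicc1 (43.6) and Dnajb11 (41.4), followed by Pkd2 (25.6), Cys1 (23.7) and Pkhd1 (14.0). They were lowest for Alg9 (7.79), Dzip1l (6.71) and Pkd1 (4.10). Ganab and Dnajb11 overlapped in their ranges over the mice. Bicc1 lay below both in the noncystic mice (26.8 to 31.0) and above both in the cystic mice (54.7 to 63.8), so no mouse lay near its mean. In noncystic mice Bicc1 reached down to the range of Pkd2, which went up to 28.1 there, and stayed above that of Cys1 (21.1 to 24.9). Pkd2 overlapped Cys1, and Pkhd1, Alg9 and Dzip1l overlapped one another. Pkd1 lay below the other 8 genes in all mice, at 3.01 to 4.88 CPM per kb. The order of the other genes depends on the length used. The longest transcript of Dzip1l has 4350 nucleotides against 7984 of unshared exon, and that of Alg9 2873 against 3389. Per length of the longest transcript, the mean of Dzip1l would lie above that of Alg9. The counts behind these levels ran from 396 to 760 per mouse for Alg9, the gene with the fewest. For Bicc1 they ran from 3335 to 10021, and Bicc1 had the most counts in each cystic mouse. In each noncystic mouse, Pkd2 and Ganab had more counts than Bicc1.

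**Figure D1:**
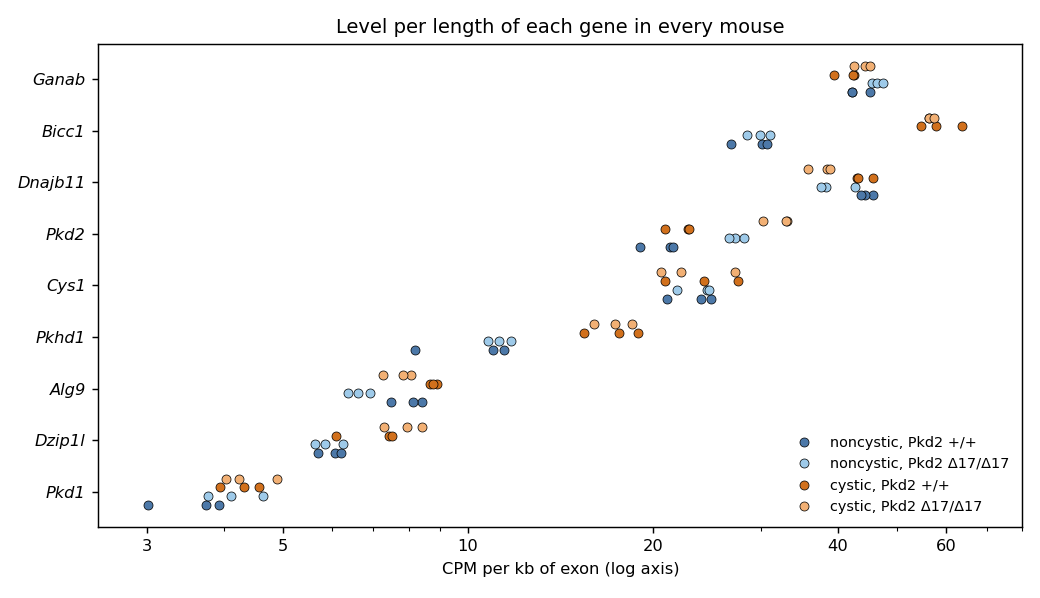
Level of each gene in CPM per kb of unshared exon (log axis); each point is 1 mouse, coloured by group, and genes are ordered by their mean over the 12 mice. Pkd1 sits lowest at 3.01 to 4.88 CPM per kb, and Bicc1 falls into 2 clouds, with the noncystic mice at 26.8 to 31.0 and the cystic mice at 54.7 to 63.8.

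The counts of 4 genes are subject to an overlap with a gene on the other strand. Of the 87 genes that lie wholly inside the exons of a well-covered gene on the opposite strand, 86 had no count in any mouse (98.9%), so reads in bases shared by 2 genes were counted for neither, whatever their strand. The shared bases were 12.9% of the exons of Alg9 (with 1110032A03Rik), 4.69% of Bicc1 (with 4930533K18Rik), 3.98% of Pkd1 (with Tsc2) and 1.45% of Pkhd1 (with 4930486I03Rik), and reads there are missing from the values. The count of Pkd1 is no check of the genotype, because RC changes a single residue and Cre removes only part of the gene in part of the cells.

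Between cystic and noncystic Pkd2 +/+ kidneys, 2 of the 9 genes rose, Bicc1 and Pkhd1, and none fell (edgeR's quasi-likelihood test, adjusted p under 0.05), against 16.9% of all 24642 genes tested that were called higher and 14.2% called lower. Among Pkd2 Δ17/Δ17 kidneys, 4 of 9 rose with cystic disease (Bicc1, Pkhd1, Dzip1l and Pkd2) and none fell, against 12.8% of all genes higher and 10.2% lower. The deletion itself raised 1 of 9 in cystic kidneys, Pkd2, and lowered none, against 1.19% of all genes higher and 1.04% lower. In noncystic kidneys the deletion called 0 of 9, against 0.00406% of all genes; 3 of the 9 had an unadjusted p under 0.05 in the same edgeR test (Pkd2, Dnajb11 and Alg9), as did 6.31% of all genes, DESeq2 called Pkd2 alone, and limma-trend called none. The median log2 fold change of the 9 genes was 0.13 and 0.22 for the cystic comparisons with Pkd2 +/+ and Pkd2 Δ17/Δ17, and 0.03 and -0.00 for the deletion in noncystic and cystic kidneys. Over all genes these medians were 0.02, -0.00, 0.01 and 0.00 in the same order.

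**Figure D2:**
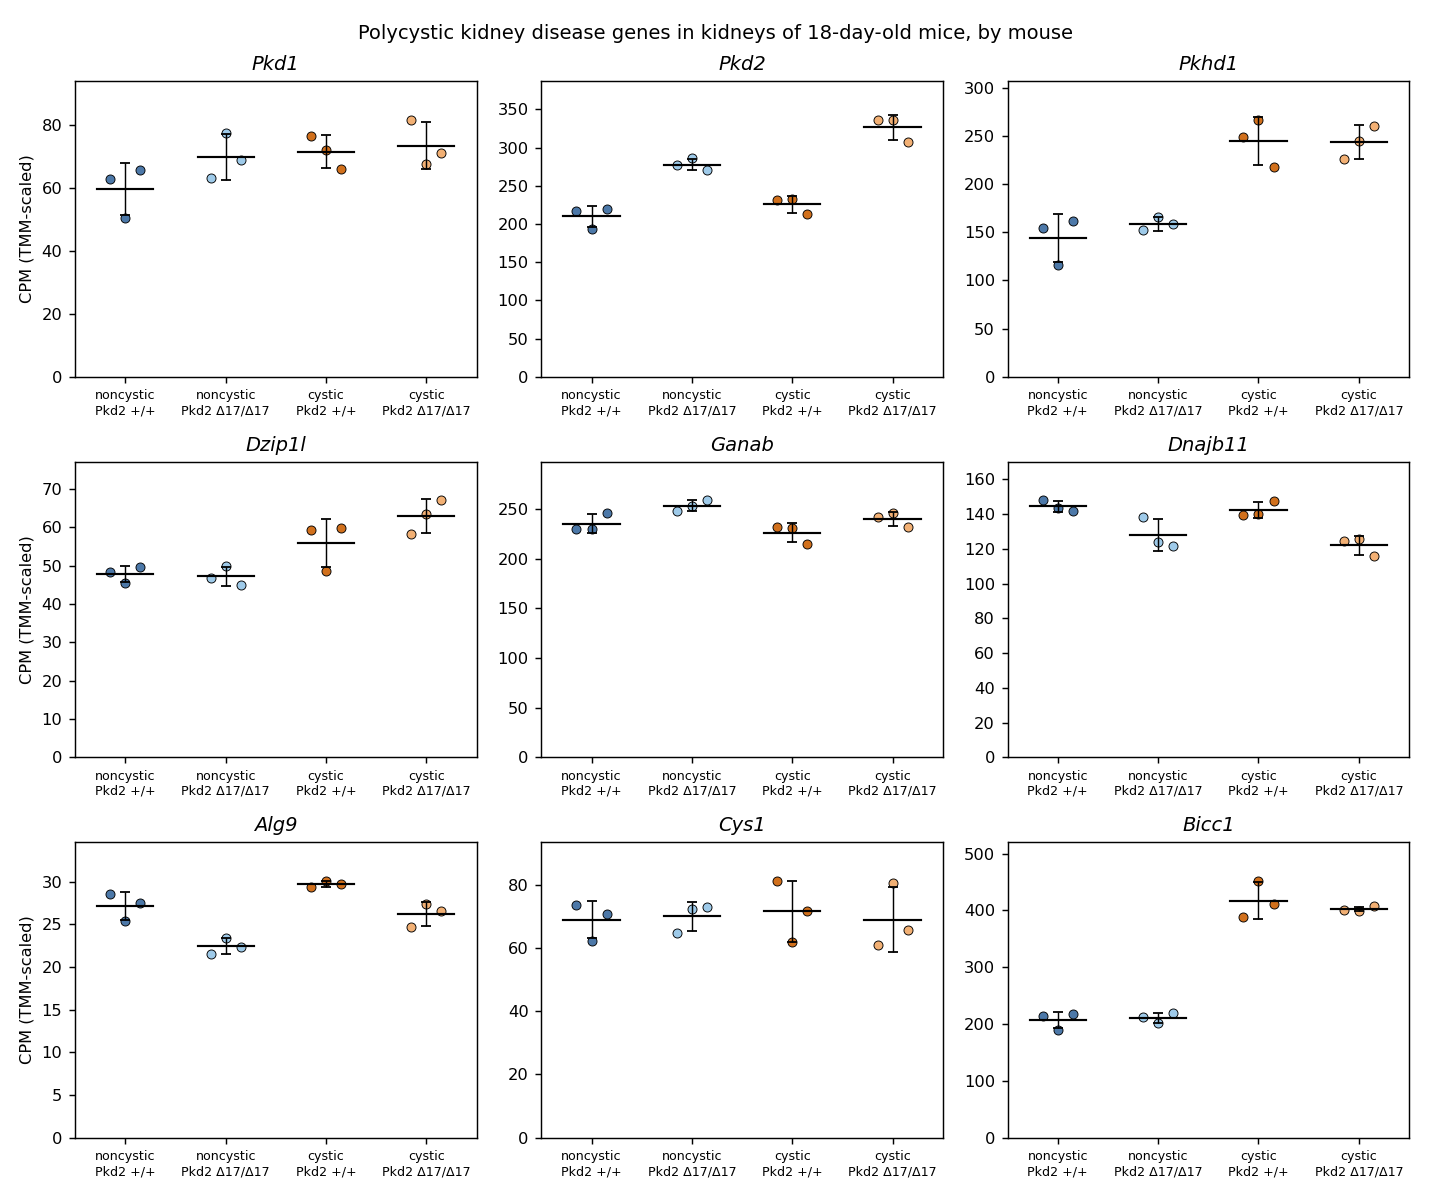
CPM (TMM-scaled, linear axes from 0) of the 9 genes in each of the 12 mice; points are mice in order of their number, horizontal bars are group means and whiskers are SD (n = 3). Bicc1 and Pkhd1 separate the cystic from the noncystic mice, Pkd2 and Dnajb11 separate the mice with the deletion from those without, and Cys1 overlaps in all 4 groups.

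The count of cystic changes depended on the scaling. Counts of the top 10 genes made up 8.91 to 9.76% of a noncystic and 4.86 to 5.93% of a cystic library, and the TMM factors were 0.933 to 0.972 and 1.04 to 1.08. With library totals in place of TMM in the edgeR fit, the median of all genes moved up by 0.16 on the log2 scale in Pkd2 +/+ kidneys and by 0.15 in Pkd2 Δ17/Δ17 kidneys. The genes called as higher in cystic Pkd2 +/+ kidneys then numbered 6 (Pkd1, Pkd2, Pkhd1, Dzip1l, Alg9 and Bicc1), against 25.4% of all genes called higher under that scaling. Those in Pkd2 Δ17/Δ17 kidneys numbered 5, the above 4 and Alg9, against 21.6% of all genes. Bicc1 and Pkhd1 were called under both scalings and in both genotypes.

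**Figure D3:**
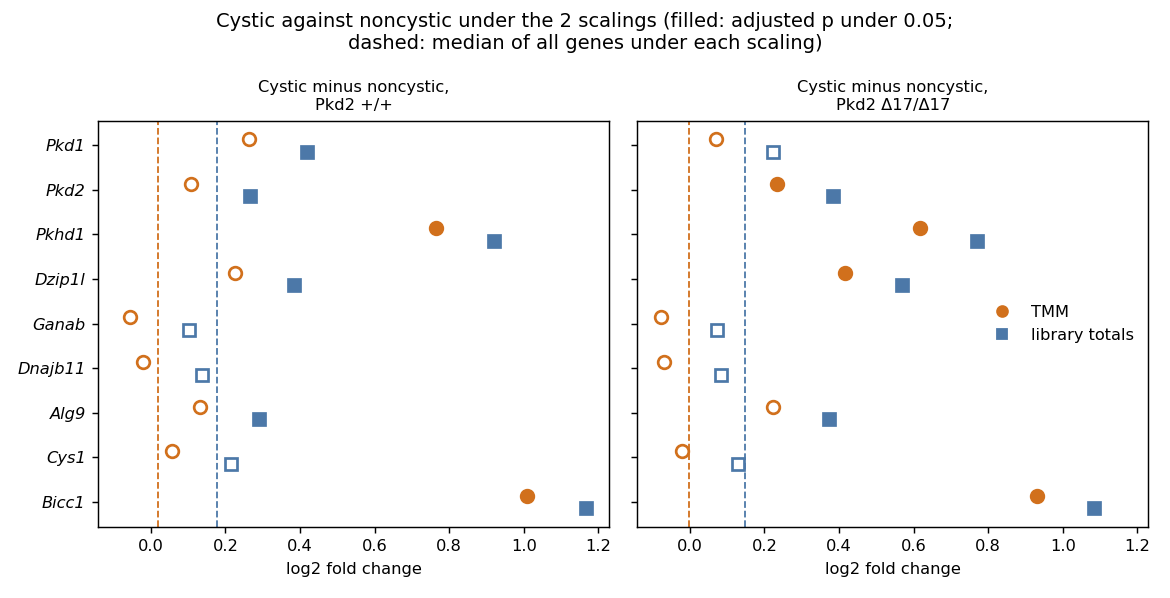
Log2 fold change of cystic over noncystic kidneys for each gene under TMM (circles) and library totals (squares), with Pkd2 +/+ on the left and Pkd2 Δ17/Δ17 on the right; filled marks have an adjusted p under 0.05 in edgeR's quasi-likelihood test, and dashed lines are the medians of all genes. Library totals shift all 9 genes to the right by about the shift of the median gene, and 4 genes gain a call with Pkd2 +/+ and 1 with Pkd2 Δ17/Δ17.

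Pkd1, the receptor-like partner of the complex, was at 62.7, 50.4 and 65.7 CPM in the noncystic Pkd2 +/+ mice and at 76.4, 72.1 and 66.0 CPM in the cystic Pkd2 +/+ mice. The Pkd2 Δ17/Δ17 mice had 63.0, 77.5 and 68.8 CPM in the noncystic and 81.6, 67.4 and 70.9 CPM in the cystic group. The noncystic Pkd2 +/+ group was lowest, without overlap with the cystic Pkd2 +/+ group although the nearest mice had 65.7 and 66.0 CPM, and the other 3 groups overlapped one another. With TMM and the cutoff on low counts, Pkd1 was called in no comparison. Its difference between cystic and noncystic Pkd2 +/+ kidneys, 0.26 on the log2 scale (adjusted p = 0.0776, edgeR's quasi-likelihood test), was called with library totals (0.42, adjusted p = 0.00766), with no cutoff (0.26, adjusted p = 0.0237) and without mouse 21 (0.32, adjusted p = 0.0474). Over the mice left out in turn, this difference ran from 0.13 to 0.32, and mouse 21 was the only one whose removal gave a call. In the 4 comparisons the 95% intervals of Pkd1 lay between -0.19 and 0.49 on the log2 scale.

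Pkd2, the channel of the complex, was at 217, 194 and 219 CPM in noncystic Pkd2 +/+ mice and 277, 286 and 270.5 CPM in noncystic Pkd2 Δ17/Δ17 mice. In the cystic mice it was at 232, 233 and 213 CPM with Pkd2 +/+ and at 337, 335.5 and 307 CPM with Pkd2 Δ17/Δ17. Every mouse with the deletion thus lay above every mouse without it, and the groups rank from noncystic to cystic within each genotype, with overlap between the Pkd2 +/+ groups only. Over both settings, 75 of the genes tested (0.304%, counted after the values of Dnajb11 were seen) kept the 6 mice with the deletion apart from the 6 without, and 2 of the 9 disease genes were among them, Pkd2 above and Dnajb11 below. The rise of Pkd2 with the deletion in cystic kidneys was 0.53 on the log2 scale (95% interval 0.37 to 0.69, adjusted p = 0.00250, quasi-likelihood test of edgeR). In noncystic kidneys the difference was 0.40 (95% interval 0.24 to 0.57), at an unadjusted p of 8.21e-05 that became 0.771 after adjustment in this edgeR fit. The call of the 0.23 rise from noncystic to cystic Pkd2 Δ17/Δ17 kidneys (adjusted p = 0.0384, same edgeR test) was lost without mouse 22, 23, 24, 28 or 29 in turn, at adjusted p-values of 0.0756 to 0.130. It was also lost in edgeR with the size factors of DESeq2 (adjusted p = 0.0680) and with no cutoff on low counts (adjusted p = 0.0726).

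The other 2 genes with the same match were not called for the deletion, and their differences were not tested against that of Pkd2. Pkd1 differed between the Pkd2 genotypes by 0.23 (95% interval -0.00 to 0.46) in noncystic and 0.04 (-0.19 to 0.26) in cystic kidneys on the log2 scale, and Bicc1 by 0.03 (-0.14 to 0.20) and -0.05 (-0.22 to 0.12). The adjusted p of these 4 differences ran from 0.771 to 0.961 in edgeR's quasi-likelihood test. Their own motifs were not edited in these mice.

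Pkhd1 was among the 2 genes that rose with cystic disease in both genotypes. It was at 155, 116 and 161 CPM in noncystic and 249, 267 and 218 CPM in cystic Pkd2 +/+ mice, and at 152, 166 and 159 CPM in noncystic and 226, 245 and 261 CPM in cystic Pkd2 Δ17/Δ17 mice. All 6 cystic mice were above all 6 noncystic mice, and mouse 20, at 116 CPM, stood below the other noncystic mice. The change was 0.76 on the log2 scale with Pkd2 +/+ (95% interval 0.53 to 1.002, adjusted p = 5.11e-05) and 0.62 with Pkd2 Δ17/Δ17 (95% interval 0.38 to 0.86, adjusted p = 0.000594), both from edgeR's quasi-likelihood test. Within each setting the deletion left Pkhd1 uncalled, with differences of 0.14 and -0.00 and intervals from -0.24 to 0.38.

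Dzip1l was at 48.5, 45.6 and 49.6 CPM in noncystic and 59.3, 48.7 and 59.98 CPM in cystic Pkd2 +/+ mice, and mouse 26, at 48.7 CPM, lay within the noncystic range. With Pkd2 Δ17/Δ17 it was at 46.7, 50.0 and 45.1 CPM in noncystic and 58.4, 63.6 and 67.1 CPM in cystic mice, with no overlap. The rise with Pkd2 Δ17/Δ17 was 0.42 on the log2 scale (95% interval 0.22 to 0.61, adjusted p = 0.00264, edgeR's quasi-likelihood test). With Pkd2 +/+ the difference was 0.22 (adjusted p = 0.0718, same edgeR test), and without mouse 26 it was 0.32 and called (adjusted p = 0.0112, same edgeR test). The cystic change was not shown to differ between the genotypes (interaction 0.19, 95% interval -0.08 to 0.46, adjusted p = 0.750, same edgeR test).

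Ganab encodes the catalytic subunit of glucosidase II, which trims glucose from new N-glycans. It was the steadiest of the 3 genes of the endoplasmic reticulum, at 229.9 to 246 CPM in noncystic Pkd2 +/+ mice, 248 to 259 in noncystic Pkd2 Δ17/Δ17 mice, 215 to 232 in cystic Pkd2 +/+ mice and 232 to 246.5 in cystic Pkd2 Δ17/Δ17 mice. It was called in none of the comparisons, and its 95% intervals lay between -0.23 and 0.26 on the log2 scale. The noncystic genotypes did not overlap, with 246 and 248 CPM in the nearest mice, and with Pkd2 Δ17/Δ17 the cystic mice lay below the noncystic mice. The latter direction turned with library totals, with which the log2 difference was 0.07 in place of -0.08.

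Dnajb11, a cochaperone of the chaperone BiP, was at 148, 144 and 141 CPM in noncystic and 139, 139.9 and 148 CPM in cystic Pkd2 +/+ mice. In Pkd2 Δ17/Δ17 mice it was at 138, 124 and 122 CPM in noncystic and 124, 126 and 116 CPM in cystic kidneys. The 6 mice with the deletion were all below the 6 without it, with 138.3 and 139.2 CPM in the nearest mice, and they also stood apart with library totals (131.3 and 132.9 CPM). Within a genotype, the cystic and the noncystic mice overlapped. The difference with the deletion was -0.18 in noncystic kidneys (95% interval -0.33 to -0.02, adjusted p = 0.771) and -0.22 in cystic kidneys (95% interval -0.37 to -0.07, adjusted p = 0.130), and neither was called by edgeR's quasi-likelihood test. DESeq2's Wald test called the cystic difference, at an adjusted p of 0.0462.

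Alg9, a mannosyltransferase that builds the glycan precursor, was at 28.6, 25.4 and 27.5 CPM in noncystic and 29.4, 30.2 and 29.8 CPM in cystic Pkd2 +/+ mice. In Pkd2 Δ17/Δ17 mice it was at 21.6, 23.5 and 22.4 CPM in noncystic and 24.7, 27.4 and 26.6 CPM in cystic kidneys. The deletion groups lay below the Pkd2 +/+ groups in each setting without overlap, and the cystic groups above the noncystic ones in each genotype, also without overlap. The deletion differences were -0.27 (95% interval -0.46 to -0.09, adjusted p = 0.771) and -0.18 (95% interval -0.37 to -0.00, adjusted p = 0.341), and the cystic differences 0.13 and 0.22 (adjusted p = 0.284 and 0.0802), none of them called by edgeR's quasi-likelihood test. With library totals both cystic differences were called, at 0.29 and 0.37 (adjusted p = 0.0186 and 0.00509, same edgeR test).

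Between the noncystic genotypes, 2 of the 9 genes (Pkd2 and Ganab) lay above without overlap with the deletion, as did 5.69% of all genes, and 2 of 9 (Dnajb11 and Alg9) below, as did 5.09%. Between the cystic genotypes, 1 of 9 lay above (8.79% of all genes) and 2 of 9 below (10.2%). Between cystic and noncystic mice, 4 of 9 did not overlap with Pkd2 +/+, near the share of 41.7% over all genes. With Pkd2 Δ17/Δ17, 5 of 9 lay higher (20.2% of all genes) and 1 of 9, Ganab, lower (17.7%). After the values of Dnajb11 and Alg9 had been seen, the deletion was also averaged over both settings in the same edgeR fit. The averaged differences were 0.47 for Pkd2 (adjusted p = 0.00184), -0.20 for Dnajb11 (adjusted p = 0.0902) and -0.23 for Alg9 (adjusted p = 0.108) on the log2 scale, so Pkd2 was the 1 gene of the 9 called by edgeR's test there, against 0.442% of all genes.

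**Figure D4:**
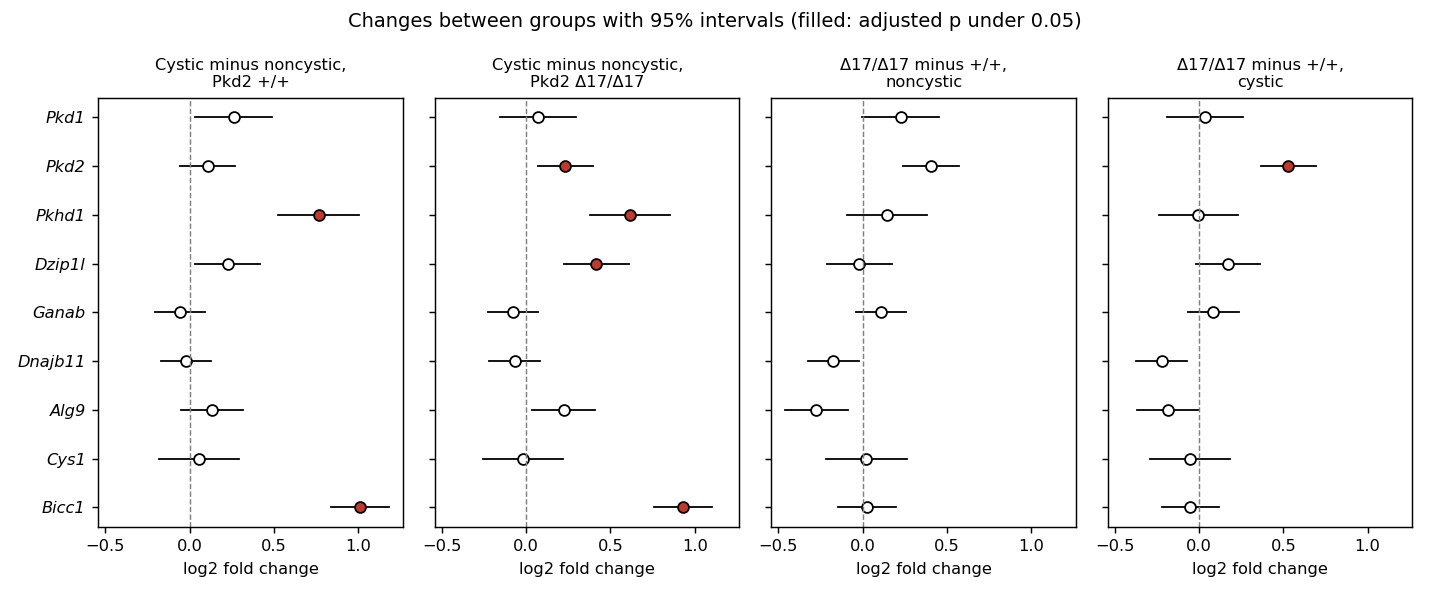
Log2 fold change (points) with its 95% interval (lines) for each gene in the 4 comparisons, from edgeR's quasi-likelihood fit to all 12 mice; filled points have an adjusted p under 0.05. Bicc1 and Pkhd1 are filled in both cystic comparisons at 0.62 to 1.01, Pkd2 is the filled gene of the deletion in cystic kidneys at 0.53, and no point is filled for the deletion in noncystic kidneys.

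Cys1 was spread evenly over the groups, at 62.3 to 73.5 CPM in noncystic Pkd2 +/+ mice, 64.7 to 72.9 in noncystic Pkd2 Δ17/Δ17 mice, 61.9 to 81.3 in cystic Pkd2 +/+ mice and 60.9 to 80.4 in cystic Pkd2 Δ17/Δ17 mice. All 4 groups overlapped, and the differences of -0.06 to 0.06 on the log2 scale had 95% intervals between -0.29 and 0.29. With 3 mice per group, these intervals do not exclude changes of Cys1 of up to about that size.

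Bicc1 showed the largest change of the 9 genes. It was at 214, 190.2 and 217 CPM in noncystic and 388, 452 and 410.4 CPM in cystic Pkd2 +/+ mice, and at 212, 202 and 219.8 CPM in noncystic and 400.3, 399.6 and 407 CPM in cystic Pkd2 Δ17/Δ17 mice. The lowest cystic mouse was well above the highest noncystic mouse, at 388 against 219.8 CPM. The change was 1.01 on the log2 scale with Pkd2 +/+ (95% interval 0.84 to 1.18, adjusted p = 1.47e-07) and 0.93 with Pkd2 Δ17/Δ17 (95% interval 0.76 to 1.10, adjusted p = 1.03e-06), both from edgeR's quasi-likelihood test. With Pkd2 +/+, 87.5% of all genes had a lower log2 fold change than Bicc1, and 83.3% a lower one than Pkhd1.

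The deletion was not shown to act differently in cystic and noncystic kidneys on any of the 9 genes. The interaction was called by edgeR's quasi-likelihood test for 0 of 9, against 0.0122% of all genes, with 0 of 9 at an unadjusted p under 0.05 against 8.33% of all genes, and DESeq2 and limma-trend called none of the 9. The interaction of Pkhd1 was -0.15 (95% interval -0.48 to 0.19) and that of Bicc1 -0.08 (-0.32 to 0.16) on the log2 scale.

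Marker genes of cell types also differed between cystic and noncystic mice, and in whole tissue fewer cells of a type and less RNA per cell cannot be told apart. Summed over 8 collecting duct markers, the level was 1294 to 1442 CPM in noncystic and 2022 to 3682 CPM in cystic Pkd2 +/+ mice. Of the 8, 3 were called as higher (Scnn1b, Scnn1g and Hsd11b2) and none as lower. Atp6v0d2 and Avpr2, not called, had lower means in the cystic mice (47.9 against 60.9 and 0.161 against 0.493 CPM). Aqp2 ran from 499 to 657 CPM in noncystic and from 335 to 1395 CPM in cystic mice. Over 7 markers of the proximal tubule the summed level was 6517 to 8238 against 2365 to 3651 CPM, with 7 of 7 lower. Markers of tubule epithelium as a whole, which include Cdh16, the gene whose promoter drives Ksp-Cre, summed to 4877 to 5002 against 5242 to 5466 CPM, with 6 of 8 higher and 1 lower. Macrophage markers summed to 111 to 118 against 259 to 308 CPM (5 of 5 higher) and fibroblast markers to 1254 to 1412 against 2232 to 3474 CPM (4 of 5 higher). No marker of these lists was at 0 in a Pkd2 +/+ mouse. Bicc1 and Pkhd1 were thus higher in kidneys in which 3 of 8 collecting duct, 5 of 5 macrophage and 4 of 5 fibroblast markers were called higher. In the same kidneys, 7 of 7 proximal tubule markers were lower. The part of the cell types in the rise of both genes was not tested.

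Ratios between genes within a library do not depend on the scaling. Per unshared exon length, Pkd2 counts exceeded Pkd1 counts by 5.68, 6.32 and 5.48 times in noncystic and 4.99, 5.31 and 5.31 times in cystic Pkd2 +/+ mice, and by 7.23, 6.07 and 6.46 times in noncystic and 6.78, 8.18 and 7.12 times in cystic Pkd2 Δ17/Δ17 mice. In cystic kidneys the ratio was 1.41 times higher with the deletion, with no overlap, and in noncystic kidneys 1.13 times with overlap. The ratio itself depends on the exons counted: with the length of the longest transcript of each gene it was 8.59 to 12.1 as group means in place of 5.21 to 7.36, with the same folds between groups.

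The ratio of Pkhd1 to Pkd1 was 2.72 to 2.93 in noncystic and 3.86 to 4.40 in cystic Pkd2 +/+ mice, and 2.54 to 2.86 and 3.28 to 4.36 in the Pkd2 Δ17/Δ17 mice. The ratio of Bicc1 to Pkd2 was 1.41 to 1.42 in noncystic and 2.40 to 2.79 in cystic Pkd2 +/+ mice, and 1.01 to 1.17 and 1.71 to 1.90 in the Pkd2 Δ17/Δ17 mice. The latter 4 groups did not overlap one another. The exact two-sided permutation p was 0.1 in 8 of the 12 comparisons made over the 3 ratios, which is the smallest that 3 mice against 3 allow, and 0.15 after Benjamini-Hochberg adjustment, so no ratio could pass the threshold.

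**Figure D5:**
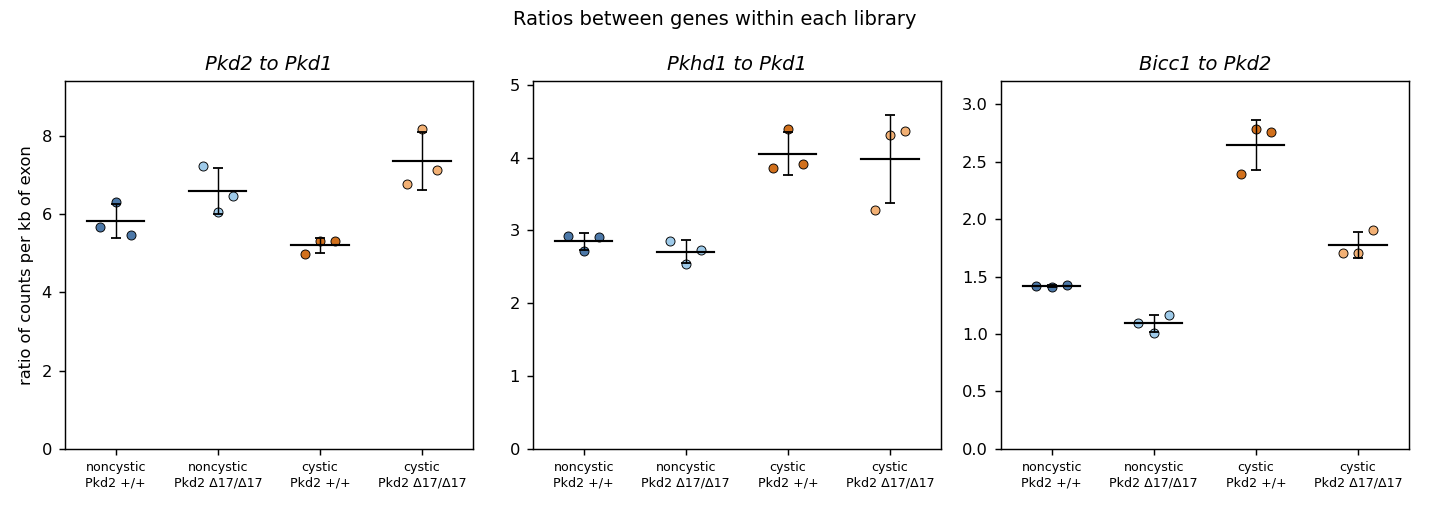
Ratios of counts per kb of unshared exon within each library (linear axes from 0), for Pkd2 to Pkd1, Pkhd1 to Pkd1 and Bicc1 to Pkd2; points are mice, bars are group means and whiskers are SD (n = 3). Pkd2 to Pkd1 is highest in the cystic mice with the deletion at 6.78 to 8.18 and overlaps there with the noncystic mice with the deletion, and Bicc1 to Pkd2 keeps all 4 groups apart.

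Further genes of the same pathways were read from lists, and their calls with library totals were added after the data had been seen. The 6 paralogs of the polycystins were low, at 8.94 to 12.5 CPM in sum over 5 of them per mouse, while Pkd2l1 did not pass the cutoff. None of the 5 was called in any comparison by edgeR's quasi-likelihood test with TMM, and with library totals Pkd2l2, named after its value was seen, was called higher in cystic than in noncystic Pkd2 Δ17/Δ17 kidneys (0.47, adjusted p = 0.0174). In noncystic and cystic kidneys alike, no gene of the 4 pathway lists was called for the deletion.

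Of 15 other genes of glycosylation and folding in the endoplasmic reticulum, 3 were higher and 2 lower in cystic than in noncystic Pkd2 +/+ kidneys. With Pkd2 Δ17/Δ17, 2 were higher and 3 lower. Over all genes, 16.9% and 12.8% were called higher and 14.2% and 10.2% lower in the 2 genotypes. List medians were 0.03 and 0.05 beside 0.02 and -0.00 for all genes. Sec61a1, a subunit of the translocon, rose by 0.45 and 0.37, and Alg8, a glucosyltransferase mutated in polycystic liver disease, rose by 0.76 with Pkd2 +/+. Uggt1, which checks the folding of glycoproteins, rose by 0.26 with Pkd2 Δ17/Δ17. The cochaperones Dnajb9 and Dnajc3 were lower with Pkd2 +/+ by log2 changes of -0.27 and -0.35, and Dnajb9 and the chaperone Hspa5 (BiP) with Pkd2 Δ17/Δ17 by -0.37 each. With library totals the lower genes kept their sign and lost their call. The list then had 6 higher and 0 lower in each genotype, beside 25.4% and 21.6% of all genes higher. Hspa5, to which Dnajb11 binds, differed with the deletion by -0.18 in noncystic and -0.31 in cystic kidneys on the log2 scale, and neither was called (adjusted p = 0.772 and 0.154, edgeR's quasi-likelihood test).

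Of 19 other genes of cystic kidney disease, 6 were higher with Pkd2 +/+ and 3 with Pkd2 Δ17/Δ17, and none was lower. Over all genes, 16.9% and 12.8% were called higher and 14.2% and 10.2% lower. The list medians were 0.16 and 0.12. The largest rises were those of the zinc finger factors Glis3 and Glis2. Glis3, mutated in a syndrome with kidney cysts, went from 47.2 ± 6.42 to 88.0 ± 5.12 CPM with Pkd2 +/+ and from 50.0 ± 2.76 to 79.1 ± 6.64 CPM with Pkd2 Δ17/Δ17 (SD, n = 3). Glis2, mutated in nephronophthisis, went from 184 ± 14.4 to 289 ± 7.65 CPM and from 176 ± 7.86 to 294 ± 3.65 CPM (SD, n = 3). In log2 these rises were 0.90 and 0.66 for Glis3 and 0.65 and 0.74 for Glis2, with adjusted p-values from 2.35e-06 to 8.77e-05 in edgeR's quasi-likelihood test. With library totals the list had 10 and 7 of 19 genes higher and none lower, beside 25.4% and 21.6% of all genes higher.

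The miR-17 family is made from primary transcripts of several loci. Mcm7, a DNA replication gene whose intron holds miR-93 and miR-106b, went from 42.6 ± 3.03 to 84.0 ± 8.68 CPM in Pkd2 +/+ and from 44.9 ± 4.76 to 83.0 ± 12.1 CPM in Pkd2 Δ17/Δ17 kidneys (SD, n = 3). These rises were 0.98 and 0.88 on the log2 scale, with adjusted p = 4.24e-06 and 2.54e-05 in edgeR's quasi-likelihood test. Mir17hg, the host of miR-17 and miR-20a, was at 8.69 ± 1.86 and 8.24 ± 1.78 CPM in noncystic and cystic Pkd2 +/+ kidneys (SD, n = 3), a difference of -0.07 that was not called (adjusted p = 0.827, same edgeR test). With Pkd2 Δ17/Δ17 it was at 8.79 ± 1.79 and 9.93 ± 0.707 CPM (SD, n = 3), a difference of 0.18 that was not called either (adjusted p = 0.602, same edgeR test). The mature microRNAs themselves were not measured here, and the count of a host gene does not give their level.

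Other genes with a pattern close to that of 8 of the 9 genes are given by the root mean square difference of log2 CPM over the 12 mice, each gene centred on its own mean, among 13690 other genes with an average log2 CPM of at least 1. For Pkhd1 these were Setbp1 (0.0724), Spata13 (0.0884) and Ptpn14 (0.0934), against a median of 0.409 over all genes compared. For Bicc1 they were Plxna1 (0.0776), Vav3 (0.0782) and Pde8b (0.0821), against 0.502, and for Pkd2 they were Lrrc56 (0.110), Btbd8 (0.120) and Plekha5 (0.132), against 0.341. The nearest genes of Dnajb11 were Pkig, Rnf126 and Arl6ip5 (0.0494 to 0.0561) and those of Alg9 were Daam1, Kctd1 and Trip6 (0.0743 to 0.0817). Pkd1 was nearest to Dpp8, Stk35 and Fam120b, Ganab to Atp11b, Rab5b and Vps11, and Cys1 to Safb2, Rusc2 and Fhod1. Among the 9 genes themselves, Dnajb11 and Alg9 were nearest to each other (0.144), closely followed by Ganab and Cys1 (0.145). Genes that vary little over all mice are near one another by this measure, and the points share libraries and depth.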

How the data were processed

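RNA from whole kidneys of 12 mice was sequenced. Per the labels, the authors trimmed reads with Trim Galore 0.6.3, aligned them to GRCm38 with STAR 2.5.3a and deposited a table of raw counts (whole numbers, not normalized) for 54532 genes; all columns were mapped to mice by the labels (0 unmapped). The strand setting is not given in the sources used here and was read from the counts. Genes without a name (343) held 0.0225% of the reads. GENCODE M21 (GRCm38) gave exons and 3′-UTRs for 54495 of the identifiers, the longest annotated 3′-UTR being taken for a gene, and RefSeq gave the microRNAs.

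Genes with an average log2 CPM of at least -3 (24642) were tested in R 4.3.3 with edgeR 4.0.16, using glmQLFit and glmQLFTest, TMM factors, one mean per group over all 12 mice, Benjamini-Hochberg adjustment over all genes tested and a threshold of 0.05. Contrasts were the deletion in each setting, cystic against noncystic in each Pkd2 genotype, and the interaction. Alternatives were limma-trend 3.58.1 with library totals (the study's method, prior count 3), DESeq2 1.42.0, edgeR scaled by library totals or by size factors of DESeq2, no cutoff, a minimum of 10 counts per mouse, the compared groups alone, Xist as a covariate, and each mouse left out. The edgeR fit was tested on simulated data.

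The text names all 9 genes, at most 2 called genes per direction, list and comparison by smallest adjusted p, the 3 nearest genes by pattern (those of Dzip1l are not reported here), and overlapping genes; the marker genes Scnn1b, Scnn1g and Hsd11b2 are named together as the full count of 3, and Hspa5, Pkd2l1, Pkd2l2, Mir17hg, Cdh16, Pax2, Atp1b1, Slc5a12 and Cldn16 were named beyond this rule after their values were seen. Aqp2, Atp6v0d2 and Avpr2 were also named beyond this rule after their values were seen, and Xist and Ddx3y were named as a check of sex. Lists and genes were chosen with earlier results of these data known. The RNA came from separate mice.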

Additional observations from a re-analysis of the deposited data

How the results depend on the processing

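Over 351 log2 differences of the 9 genes under alternatives other than leaving out a mouse, 321 kept their direction and their side of the threshold. The genes called in cystic Pkd2 +/+ kidneys went from 2 to 6 with library totals, both in edgeR and in limma-trend. For the deletion, DESeq2 called 1 of 9 in noncystic kidneys in place of 0, as did edgeR with no cutoff on low counts, and 2 of 9 in cystic kidneys in place of 1. With the length of the longest transcript, the mean ratio of Pkd2 to Pkd1 was 9.62, 10.9, 8.59 and 12.1 in noncystic Pkd2 +/+, noncystic Pkd2 Δ17/Δ17, cystic Pkd2 +/+ and cystic Pkd2 Δ17/Δ17 mice, which follows from the lengths used. Directions that turned were all of differences that were not called. With library totals in limma-trend and edgeR, the cystic log2 difference with Pkd2 +/+ was 0.10 and 0.10 for Ganab and 0.14 and 0.14 for Dnajb11, and with Pkd2 Δ17/Δ17 it was 0.074 and 0.073 for Ganab, 0.085 and 0.084 for Dnajb11, and 0.12 and 0.13 for Cys1. These shifts are close to that of the median gene. The deletion difference of Pkhd1 in cystic kidneys was 0.0045 with limma-trend, 0.0033 with library totals in edgeR, 0.0018 with at least 10 counts in every mouse and 0.022 with Xist as a covariate, and the cause was not tested.

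Of 324 values with 1 mouse left out, 287 kept their direction and side. The genes called numbered 2 to 3 in cystic Pkd2 +/+ kidneys, where Pkd1 was added without mouse 21 (adjusted p = 0.0474, edgeR) and Dzip1l without mouse 26, and 3 to 4 in cystic Pkd2 Δ17/Δ17 kidneys. Differences whose sign turned with a mouse left out were, for the deletion in noncystic kidneys, Pkhd1 (-0.0028 to 0.23), Dzip1l (-0.066 to 0.013), Cys1 (-0.054 to 0.071) and Bicc1 (-0.038 to 0.062), and in cystic kidneys Pkd1 (-0.048 to 0.093), Pkhd1 (-0.080 to 0.064), Cys1 (-0.18 to 0.047) and Bicc1 (-0.10 to 0.012). For cystic against noncystic they were Cys1 with Pkd2 +/+ (-0.046 to 0.15) and, with Pkd2 Δ17/Δ17, Pkd1 (-0.013 to 0.13) and Cys1 (-0.15 to 0.061), and for the interaction Pkhd1 (-0.23 to 0.00069), Ganab (-0.057 to 0.0057), Dnajb11 (-0.082 to 0.028) and Cys1 (-0.20 to 0.025). No paired analysis was possible because each mouse has a number of its own in the labels, so that no groups share one. Depth did not keep any of the 9 genes from the tests. The width of the intervals depends on the number of mice and on the spread between them.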

Other observations

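Mouse 20 was the lowest of the noncystic Pkd2 +/+ group in CPM for 8 of the 9 disease genes (all but Dnajb11), while it was the lowest of that group for 31.3% of all genes tested. No other mouse was the lowest of its group for more than 5 of the 9. Without mouse 20 the cystic change of Pkhd1 with Pkd2 +/+ was 0.61 on the log2 scale in place of 0.76, and that of Bicc1 was 0.93 in place of 1.01, and both were still called by edgeR's quasi-likelihood test. Dzip1l and Cys1 were at 48.7 and 61.9 CPM in mouse 26, the lowest of the cystic Pkd2 +/+ group in both genes, in which Pkhd1 and Bicc1 were the highest of that group, at 267 and 452 CPM.

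The sums of the other marker lists differed between noncystic and cystic Pkd2 +/+ mice as well. They were 460.4 to 551 against 176 to 239 CPM for podocyte markers (4 of 4 lower), 414 to 468 against 269.9 to 310.1 CPM for endothelial markers (3 of 4 lower), and 3658 to 4648 against 2000.2 to 2606 CPM for markers of the thick ascending limb and distal tubule (5 of 7 lower, 1 higher). Lymphocyte markers were low, at 5.42 to 7.68 against 1.47 to 2.12 CPM in sum, with 1 of 4 lower. This was Cd8a, with means of 4.77 and 0.549 CPM (log2 change -3.11, adjusted p = 2.12e-06, edgeR's quasi-likelihood test). With the deletion in cystic kidneys, 1 of 7 markers of the thick ascending limb and distal tubule and 2 of 7 of the proximal tubule were called higher, and 1 of 8 of tubule epithelium and 1 of 5 of macrophages lower. The other markers of these lists were not called, and 1 of the proximal tubule (Slc5a12, -0.08), 1 of the thick ascending limb (Cldn16, -0.09) and 3 of tubule epithelium (Cdh16, Pax2 and Atp1b1, 0.0044 to 0.24) had the opposite sign. Slc12a1 of the thick ascending limb rose by 0.93 on the log2 scale (adjusted p = 0.000704) and the proximal tubule genes Lrp2 and Slc7a13 by 0.64 and 0.83 (adjusted p = 0.0308 and 0.0180), while Krt18 of tubule epithelium and Cd68 of macrophages were lower, at -0.71 and -0.63 (adjusted p = 0.0427 and 0.0317), all in edgeR's quasi-likelihood test.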
